A study of Mus musculus with 3 samples.

Results

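The genes of fatty acid and lipoprotein handling were described across 3 libraries of mouse heart fibroblasts. The set was chosen by name, with earlier results of these data known, and holds 9 genes: Fabp4, Fabp5, Cd36, Lpl, Gpihbp1, Apoe, Abca1, Abcg1 and Pparg. All 9 were found among the 31930 entries of the tables, each alone at its locus, and all 9 were measured, that is, reached at least 1 FPKM (a level per transcript length and per sequenced fragments) in at least 1 library of every comparison.

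The library labelled uninjured came from wild type C57/BL6 hearts, and its cells were kept on a culture plate for 4 h before RNA was taken. The libraries labelled FSP1+ and αSMA+ came from FSP1-GFP and aSMA-GFP transgenic mice of the same background, 10 days post MI (myocardial infarction), and hold GFP+ cells. In these mice the promoter of S100a4, the gene of FSP1, or that of Acta2, the gene of αSMA, drives GFP, so that a GFP+ cell is one that used that promoter, whatever its type. All mice were labelled as 12 weeks old. The methods describe the FSP1 sort as leaving out cells positive for CD45, a marker of blood cells, or CD31, a marker of endothelium, whereas the αSMA sort used GFP alone. Hearts were pooled before sorting, and each group has 1 library, so that no difference between groups has a replicate, an error or a test, and every ratio compares 2 libraries. Injury, sorting, genotype and plating differ together between the uninjured library and the others and cannot be told apart.

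The labels were checked first with the 2 genes whose promoters drive GFP. S100a4 stood at 30.8 FPKM in the library labelled FSP1+ and 12.0 FPKM in that labelled αSMA+. Acta2, however, stood at 279.8 and 65.0 FPKM in these libraries, and at 77.1 and 95.4 FPKM in the table of αSMA+ and uninjured. Acta2 was thus lowest in the library labelled αSMA+, against its label. For αSMA+ and for uninjured, title and description of the record also carry different numbers. Of the fibroblast genes Col1a1, Col1a2, Col3a1 and Postn, named after their values were seen, each likewise had its lowest value under the αSMA+ label and its highest under the uninjured label, with Col1a1 at 900 FPKM in FSP1+ and 266 FPKM in αSMA+, and at 316 FPKM in αSMA+ and 2037 FPKM in uninjured. The paper describes Col1a1, Col1a2 and Col3a1 as higher in αSMA+ than in FSP1+ fibroblasts, the reverse of these labelled values. Other fibroblast genes, Pdgfra, Dcn, Lum, Mfap5 and Gsn, went the other way and were at least 2-fold higher in αSMA+ than in FSP1+. Gsn stood at 2426 FPKM in FSP1+ and 20694 FPKM in αSMA+. In αSMA+ over uninjured only Gsn among them reached 2-fold (log2 ratio 2.20). Pdgfra, Lum, Mfap5 and Dcn stood at 0.03, 0.18, 0.07 and 0.89 there. Whether the libraries labelled αSMA+ and uninjured were exchanged was not tested. Libraries are therefore called by their labels throughout, and every direction given is between labelled libraries. Directions between αSMA+ and uninjured would turn if these libraries had been exchanged. The ratios of FSP1+ over αSMA+ and of FSP1+ over uninjured would trade places. A gene higher in FSP1+ than in both of them, such as Fabp4 (log2 ratios 3.03 and 5.75), would stay so. The tables give no read numbers. Among entries above 0 and below 0.15 FPKM in both libraries of a comparison, the most common ratio was about 1.41 for αSMA+ over FSP1+. It was 1.57 for uninjured over FSP1+. This is a rough guide to relative depth, where a larger value of such low entries goes with fewer reads. For uninjured over αSMA+ the ratio was 0.973, so that the order of these libraries in depth is not known.

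Long-chain fatty acids reach the heart bound to albumin or inside triglyceride-rich lipoproteins. Lipoprotein lipase, made by parenchymal cells, is carried to the capillary lumen by GPIHBP1 and frees fatty acids there, CD36 takes them up, and fatty acid binding proteins carry them inside the cell. Cholesterol leaves cells through ABCA1 and ABCG1, which hand it to apolipoprotein A-I and to high density lipoprotein, and apolipoprotein E, secreted by macrophages and many other cells, is a ligand of lipoprotein receptors. PPARγ, a nuclear receptor bound by fatty acids, acts on Fabp4, Cd36 and other lipid genes as a partner of retinoid X receptors, and LXR, a sterol-bound receptor, acts on Abca1, Abcg1 and Apoe.

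Promoter sequence from RefSeq on GRCm38.p6 was at hand for 4 of the 9 genes, Cd36, Abca1, Apoe and Pparg. Those of Cd36 and Abca1 are shown because the first gene was among those that differed most between the libraries and the second was below 2-fold in every comparison. Each run holds the 250 bases before the RefSeq start, which for Cd36 lies inside the span of the deposited entry, 5′ to 3′ on the strand of the gene, with matches to the motifs searched in capitals. The motifs were the nuclear receptor half-site AGGTCA, its direct repeat spaced by 1 base (DR1, AGGTCANAGGTCA, the form bound by PPARγ with RXR, up to 2 mismatches), its direct repeat spaced by 4 bases (DR4, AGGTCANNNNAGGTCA, the form bound by LXR with RXR, up to 2 mismatches), the E-box CACGTG, the GC box GGGCGG and the TATA box TATAAA, on both strands. An AGGTCA inside a repeat also counts as a half-site.
Cd36, chr5:17835897-17836146, minus strand: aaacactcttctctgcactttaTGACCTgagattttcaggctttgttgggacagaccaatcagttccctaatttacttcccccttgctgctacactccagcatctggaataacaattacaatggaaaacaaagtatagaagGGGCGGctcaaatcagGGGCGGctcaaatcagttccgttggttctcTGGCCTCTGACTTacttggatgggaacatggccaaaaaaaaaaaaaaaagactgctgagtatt
Abca1, chr4:53159896-53160145, minus strand: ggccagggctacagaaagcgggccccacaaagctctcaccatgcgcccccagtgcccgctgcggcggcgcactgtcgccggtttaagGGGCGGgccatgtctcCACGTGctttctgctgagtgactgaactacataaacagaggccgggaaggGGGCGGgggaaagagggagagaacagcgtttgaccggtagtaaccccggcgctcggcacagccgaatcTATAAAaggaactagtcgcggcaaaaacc

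In the Cd36 window a half-site lay on the opposite strand at -228 to -223, GC boxes at -109 to -104 and -93 to -88, and a DR1 with 2 mismatches on the opposite strand at -63 to -51, counted from the start. The Abca1 window held GC boxes at -163 to -158 and -97 to -92, an E-box at -147 to -142 and a TATA box at -29 to -24, and no DR4 at this number of mismatches. A DR4 with more mismatches was not searched for, so that the window may still hold a site for LXR. Of 32851 promoters of the same length, 14% held the half-site, 3.24% the DR1, 2.57% the DR4, 6.02% the E-box, 32.7% the GC box and 12.4% the TATA box. No match shows that a factor binds.

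Comparing the library labelled FSP1+ with that labelled αSMA+, 6 of the 9 genes were at least 2-fold higher, none was at least 2-fold lower, and 3 (Lpl, Apoe and Abca1) were neither. The log2 ratio was taken after 1 was added to each FPKM, and of 16374 entries measured in this comparison 19.1% were at least 2-fold higher and 14.5% lower. The median log2 ratio of the genes was 1.21, against 0.04 over all measured entries. Since the genes were chosen with earlier results of these data known, these counts and medians describe the set and test nothing. Comparing FSP1+ with uninjured, 7 of the 9 were higher and none lower, where 14.6% of 17578 measured entries were higher and 16.0% lower, with a median of 3.02 against 0.02. Comparing αSMA+ with uninjured, 5 were higher and none lower, where 17.0% of 17204 measured entries were higher and 7.11% lower, with a median of 1.46 against 0.05. The split of all entries moved with the scaling. Of the entries called in FSP1+ over αSMA+ 56.9% were higher, but 41.6% when the ratio was taken through the uninjured library. Of those called in FSP1+ over uninjured 47.6% were higher, but 33.5% in TPM (FPKM rescaled so that all entries of a library have the same fixed sum) and 64.3% through the αSMA+ library. In αSMA+ over uninjured 70.5% were higher, but 31.0% in TPM and 56.1% through the FSP1+ library. The 3 comparisons share libraries, so they do not support each other. In bulk RNA, fewer cells of a type and less RNA per cell cannot be told apart.

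**Figure D1:**
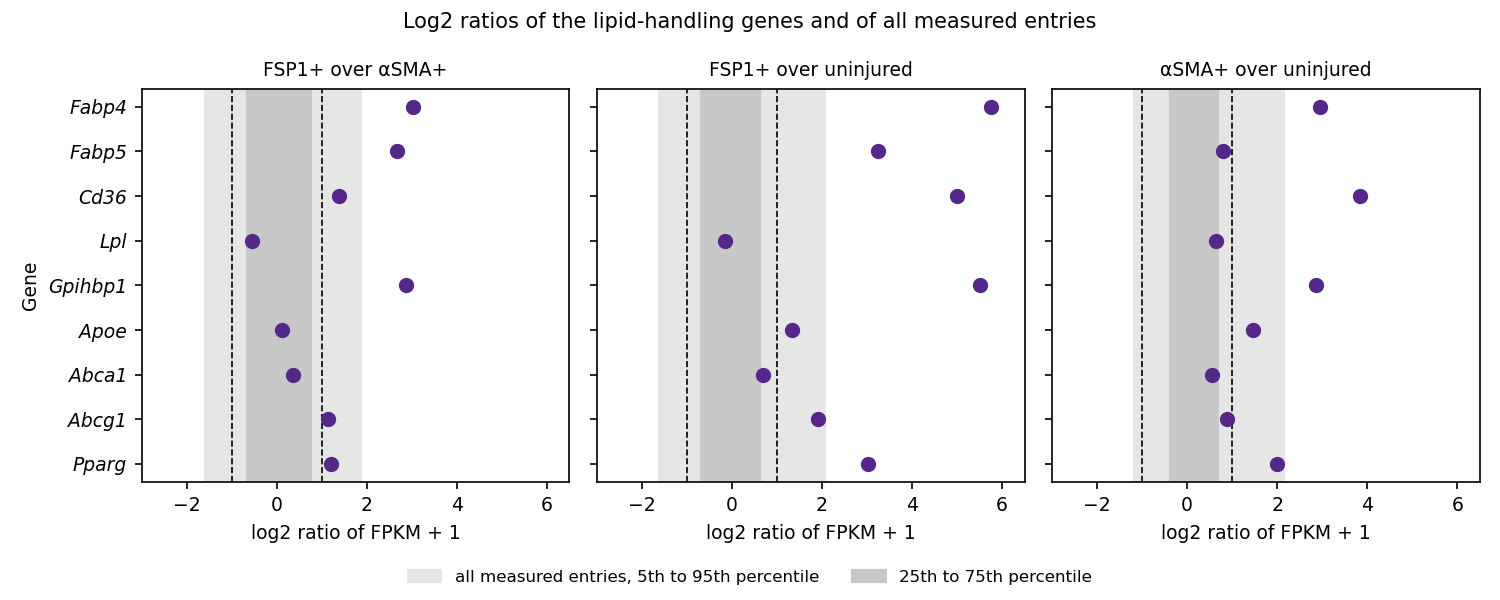
The log2 ratio of FPKM with 1 added is shown for each of the 9 genes in the 3 comparisons of 2 libraries, 1 point per comparison, over grey bands that mark the middle of all measured entries, with dashed lines at 2-fold and no error since each group has 1 library. Fabp4, Gpihbp1 and Cd36 lie highest in FSP1+ over uninjured (5.75, 5.51 and 4.99), whereas Lpl and Abca1 stay within 2-fold in each comparison.

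Fabp4 encodes the fatty acid binding protein of adipocytes, macrophages and capillary endothelium. In the table of FSP1+ and αSMA+ it stood at 3083 FPKM in the library labelled FSP1+ and 376 FPKM in that labelled αSMA+, 8.19-fold apart (log2 ratio 3.03). In the table of FSP1+ and uninjured the values were 3542 and 65.0 FPKM (log2 ratio 5.75, 53.7-fold), which was the largest ratio of any of the 9 genes. The αSMA+ library was also above the uninjured library, at 445 against 56.3 FPKM (log2 ratio 2.96). By level, Fabp4 ranked 17th of all entries in the library labelled FSP1+, 275th in that labelled αSMA+ and 1139th in the uninjured library. The gene lies on the minus strand of chromosome 3 (10204343 to 10208576, GRCm38).

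Fabp5, the epidermal fatty acid binding protein that capillary endothelium and macrophages also make, was far lower than Fabp4 in FPKM and differed mainly in the library labelled FSP1+. It stood at 138 FPKM there against 20.9 FPKM in αSMA+ (log2 ratio 2.67), and at 159 against 16.0 FPKM in the table with the uninjured library (log2 ratio 3.24). The αSMA+ and uninjured libraries stood at 24.7 and 13.8 FPKM (log2 ratio 0.79, or 0.20 in TPM), below 2-fold. Within a library, the FPKM of Fabp4 was 22.3 times that of Fabp5 in FSP1+, 18.0 times in αSMA+ and 4.07 times in uninjured. Fabp5 (chromosome 3, 10012585 to 10016610, plus strand) has an annotated copy by name, Fabp5l2, and their sequences were not compared. How the counting divided any reads shared by the copies is not given in the sources used here, so the values of Fabp5 are uncertain.

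Cd36, the membrane receptor for long-chain fatty acids and oxidised lipoproteins on capillary endothelium, macrophages and adipocytes, stood at 305 FPKM in the library labelled FSP1+ and 116 FPKM in that labelled αSMA+ (log2 ratio 1.39). Its FSP1+ value was 350.5 FPKM in the table with the uninjured library, which stood at 10.0 FPKM (log2 ratio 4.99, 31.8-fold). In αSMA+ over uninjured the values were 137 and 8.72 FPKM (log2 ratio 3.83, 14.2-fold), the largest ratio of the 9 genes in that comparison. The αSMA+ library thus lay nearer to FSP1+ for Cd36 than for Fabp4 or Gpihbp1. The FPKM of Fabp4 was 10.1 times that of Cd36 in FSP1+, 3.24 times in αSMA+ and 6.47 times in uninjured. Cd36 spans 17781690 to 17888959 on the minus strand of chromosome 5. The window shown with a DR1 match lies before a RefSeq start inside this span, and not before its outermost 5′ end, and the entry joins 5 transcripts, so that the values do not tell which start was used.

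Gpihbp1, the capillary protein that binds lipoprotein lipase and carries it across the endothelium, stood at 493 FPKM in FSP1+ against 66.3 FPKM in αSMA+ (log2 ratio 2.87). Against the uninjured library the values were 566 and 11.5 FPKM (log2 ratio 5.51, 45.4-fold). In αSMA+ over uninjured they were 78.7 and 9.93 FPKM (log2 ratio 2.87). Gpihbp1 differed between the libraries much as Fabp4 did, and the FPKM of Fabp4 was 6.26, 5.66 and 5.66 times that of Gpihbp1 in the libraries labelled FSP1+, αSMA+ and uninjured. Gpihbp1 lies on the plus strand of chromosome 15 (75596658 to 75598213).

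Lpl, the lipase that GPIHBP1 carries, did not follow it. The libraries labelled FSP1+ and αSMA+ stood at 74.5 and 109 FPKM (log2 ratio -0.55). Those labelled FSP1+ and uninjured stood at 85.5 and 95.03 FPKM (log2 ratio -0.15), a difference whose sign turned when the ratio was taken through the αSMA+ library (0.10). Those labelled αSMA+ and uninjured stood at 129.6 and 82.4 FPKM (log2 ratio 0.65, or 0.02 in TPM). No ratio of Lpl reached 2-fold, and the FPKM of Lpl was 0.151 times that of Gpihbp1 in FSP1+, 1.65 times in αSMA+ and 8.28 times in uninjured. The gene is on the plus strand of chromosome 8 (68880555 to 68906932).

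**Figure D2:**
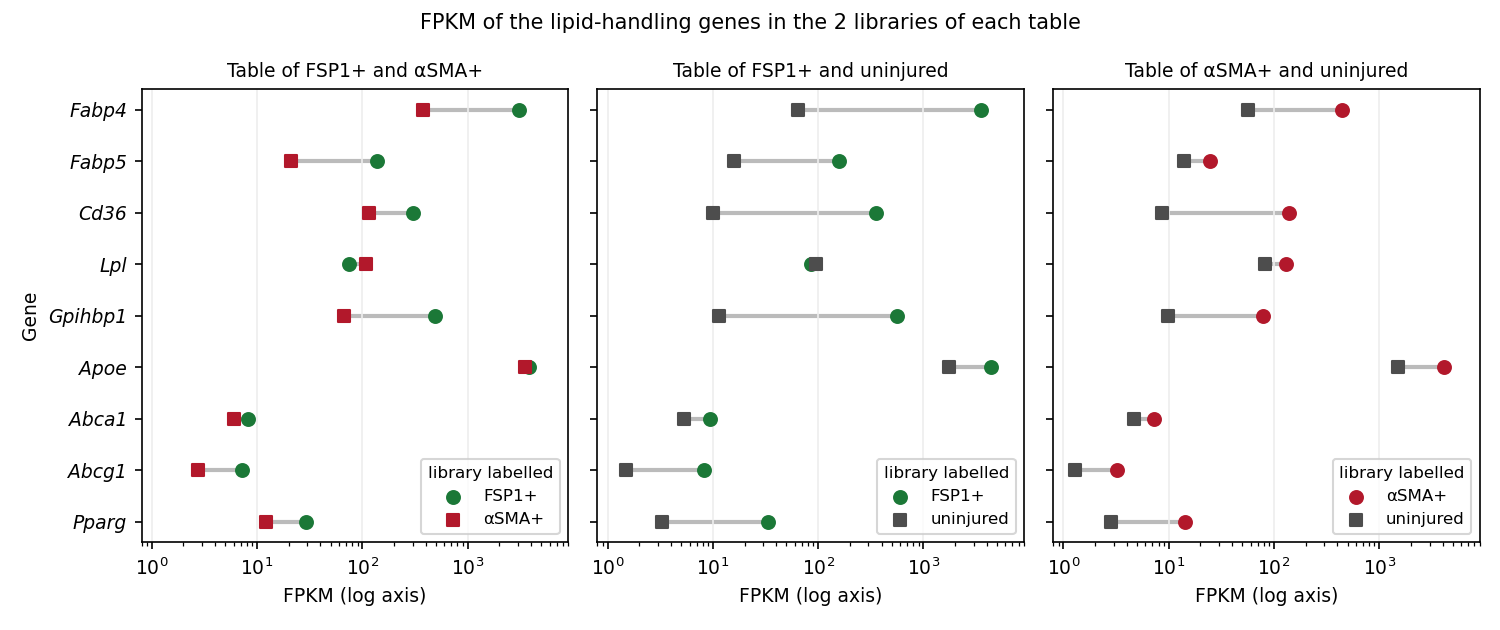
FPKM of the 9 genes is shown on a log axis in each table, 1 point per library and 2 libraries per table, since Cuffdiff scaled each table separately, with a grey line joining them. Apoe is at 1504 FPKM or above in every library, whereas Fabp4 runs from 56.3 FPKM in the uninjured library to 3542 FPKM in that labelled FSP1+.

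Apoe encodes apolipoprotein E, and it was among the most abundant entries of all 3 libraries. It ranked 11th in FSP1+, 16th in αSMA+ and 36th in uninjured. FSP1+ and αSMA+ stood at 3817 and 3490.3 FPKM, a log2 ratio of 0.13, which became -0.13 when taken through the uninjured library. The libraries labelled FSP1+ and uninjured stood at 4386 and 1738 FPKM (log2 ratio 1.33), and those labelled αSMA+ and uninjured at 4140.0 and 1504 FPKM (log2 ratio 1.46, or 0.83 in TPM, below 2-fold). The libraries labelled FSP1+ and αSMA+ were therefore above that labelled uninjured, by far less than for Fabp4, Cd36 or Gpihbp1. Apoe lies on the minus strand of chromosome 7 (19696244 to 19699166).

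Abca1, the exporter that passes cholesterol to apolipoprotein A-I, stayed within 2-fold in each comparison. It stood at 8.12 and 6.08 FPKM in FSP1+ and αSMA+ (log2 ratio 0.36), at 9.32 and 5.34 FPKM in FSP1+ and uninjured (0.70), and at 7.21 and 4.63 FPKM in αSMA+ and uninjured (0.54). Abca1 spans 53030789 to 53159895 on the minus strand of chromosome 4, and its promoter is the one shown with an E-box and a TATA box.

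Abcg1, the exporter to high density lipoprotein, was the lowest of the 9 genes in FPKM in each library. Its values were 7.23 and 2.74 FPKM in FSP1+ and αSMA+, a log2 ratio of 1.14 that was below 2-fold with a pseudocount of 5 FPKM (0.66). In FSP1+ and uninjured it stood at 8.30 and 1.48 FPKM (log2 ratio 1.90). In αSMA+ and uninjured the values were 3.25 and 1.29 FPKM, a log2 ratio of 0.89 that passed 2-fold with a pseudocount of 0.1 FPKM (1.27). Abcg1 was thus lower in the uninjured library than Abca1 was, and the FPKM of Abca1 was 1.12 times that of Abcg1 in FSP1+, 2.22 times in αSMA+ and 3.60 times in uninjured. Its entry (chromosome 17, 31057694 to 31117981, plus strand) also holds an annotated ribosomal RNA gene, Gm25447, on the same strand, whose reads may enter the value.

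Pparg, which encodes PPARγ, stood at 29.3 FPKM in FSP1+ and 12.1 FPKM in αSMA+ (log2 ratio 1.21). Its values were 33.7 and 3.27 FPKM in FSP1+ and uninjured (log2 ratio 3.02, 8.13-fold), and 14.3 and 2.83 FPKM in αSMA+ and uninjured (log2 ratio 2.0, 4.00-fold). Pparg was therefore ordered FSP1+, αSMA+, uninjured, at a far lower level than Fabp4 or Cd36. It lies on the plus strand of chromosome 6 (115361221 to 115490401) and overlaps an annotated antisense gene, Gm44079. The library kit marked strand, but whether counting used it is not given in the sources used here, so reads of the antisense gene may be included.

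To set all 3 libraries on 1 scale, FPKM was rescaled to TPM. In TPM, 8 of the 9 genes were ordered FSP1+, αSMA+, uninjured, from Fabp4 (4710, 518 and 101 TPM) to Abcg1 (11.0, 3.77 and 2.31 TPM). Gpihbp1 stood at 752, 91.4 and 17.9 TPM, Cd36 at 466, 159.7 and 15.7 TPM, and Pparg at 44.8, 16.7 and 5.09 TPM. The ratio of the highest to the lowest library was 46.5 for Fabp4, 42.1 for Gpihbp1, 29.8 for Cd36, 8.80 for Pparg and 8.50 for Fabp5. It was small for the others, at 4.77 for Abcg1, 2.15 for Apoe, 1.49 for Abca1 and 1.32 for Lpl, the gene outside that order (114, 151 and 148 TPM). With 1 library per group, it cannot be said which neighbours in these orders differ beyond their spread, and the αSMA+ and uninjured values of Abca1 (8.37 and 8.33 TPM), Lpl and Fabp5 (28.7 and 24.9 TPM) lay closest together.

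For each gene, the 3 protein-coding genes nearest in pattern were taken as those with the smallest distance over the 3 log2 ratios, among 5495 genes with at least 10 FPKM in some library. With 3 libraries this is a loose description, and genes of little change have many near neighbours. For Fabp4 the nearest was Gpihbp1 (distance 0.31), followed by Nrgn and S100a8, the latter a neutrophil and monocyte gene. For Gpihbp1 it was Nrgn (0.15), followed by Fabp4 and Tcf15, a transcription factor of cardiac capillary endothelium. For Cd36 it was Rgcc (0.23), also made by capillary endothelium, followed by the lysozyme genes Lyz1 and Lyz2. For Pparg the nearest were Slc6a6, Gata2 and Ehd4, for Fabp5 Kank3, B3gnt3 and Dok3, and for Abcg1 Hspa2, Isg15 and Rac2. Lpl lay nearest to Gid4, Apoe to Ino80c, Cdkn1c and Dazap2, and Abca1 to Klf3, Sec61g and BC031181.

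Other genes of fatty acid transport and activation differed in both directions, and 17 of the 20 listed could be named. The counts in this and the later lists stand beside the shares of all measured entries. These were 19.1% higher and 14.5% lower in FSP1+ over αSMA+, 14.6% and 16.0% in FSP1+ over uninjured, and 17.0% and 7.11% in αSMA+ over uninjured. Of 12 measured in FSP1+ over αSMA+, 4 were higher and 4 lower (median 0.39). Of 14 measured in FSP1+ over uninjured, 4 were higher and 2 lower (0.05, or -0.21 in TPM), and of 12 in αSMA+ over uninjured, 5 were higher and 2 lower (0.55, or -0.28 in TPM). Cav1, the caveolar coat protein abundant in endothelium, followed the order of Fabp4, at 338 against 68.1 FPKM in FSP1+ over αSMA+ (log2 ratio 2.29) and at 388 against 37.5 FPKM in FSP1+ over uninjured (3.34). Acsl4, an acyl-CoA synthetase that favours arachidonic acid, was instead highest in αSMA+, at 7.94 against 91.1 FPKM in FSP1+ over αSMA+ (log2 ratio -3.36) and at 108 against 4.74 FPKM in αSMA+ over uninjured (4.25). Fabp3, the binding protein of heart muscle, did not share the pattern of Fabp4, at 11.8 against 18.1 FPKM in FSP1+ over αSMA+ (-0.57) and 21.4 against 5.27 FPKM in αSMA+ over uninjured (1.84).

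Of the lipoprotein lipase regulators and other lipases, 11 of 15 were named, and in FSP1+ over αSMA+ none of 8 measured was higher and 1 was lower (median -0.39, or 0.01 in TPM). In FSP1+ over uninjured 1 of 9 was higher and 1 lower, with a median of -0.36, although the mean was 0.10, and in αSMA+ over uninjured 3 of 9 were higher and 1 lower (0.86). Angptl4, the secreted inhibitor of lipoprotein lipase, was higher in the libraries labelled FSP1+ and αSMA+ than in that labelled uninjured, at 85.5 against 17.9 FPKM for FSP1+ (log2 ratio 2.19) and 63.9 against 15.5 FPKM for αSMA+ (1.98), and stood at 74.4 and 53.9 FPKM in FSP1+ and αSMA+ (0.46). Pcsk6, a proprotein convertase, was lower in FSP1+ than in αSMA+, at 41.1 against 134 FPKM (-1.68).

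The lipoprotein and scavenger receptors, 12 of 18 named and all 12 measured, held 4 higher and 2 lower genes in FSP1+ over αSMA+ (median 0.22), 6 and 2 in FSP1+ over uninjured (0.84), and 5 and 0 in αSMA+ over uninjured (0.73). The last 2 medians depended on the filter and were 2.96 and 1.43 among genes with at least 5 FPKM in either library. Scarb1, the receptor for high density lipoprotein, was at 78.5 against 17.0 FPKM in FSP1+ over αSMA+ (log2 ratio 2.14), at 90.2 against 9.37 FPKM in FSP1+ over uninjured (3.14) and at 20.2 against 8.11 FPKM in αSMA+ over uninjured (1.22). Trem2, a lipid receptor of macrophages, was at 36.5 against 5.49 FPKM in FSP1+ over αSMA+ (2.53). The very low density lipoprotein receptor gene Vldlr went the other way, at 1.70 against 10.3 FPKM (-2.06). Among 12 of 16 named apolipoproteins and related genes, 8 were measured, with 2 higher and 2 lower in FSP1+ over αSMA+ and 1 higher and 1 lower in each of the others. Clu, an apolipoprotein also called clusterin, was the most abundant, at 304 against 116 FPKM in FSP1+ over αSMA+ (1.38).

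In the LXR and cholesterol export list, 13 of 21 genes were named and none was at least 2-fold lower in any comparison. Higher were 4 of 11 measured in FSP1+ over αSMA+ (median 0.36), 3 of 12 in FSP1+ over uninjured (0.51) and 2 of 12 in αSMA+ over uninjured (0.45, or -0.16 in TPM). The last count is near the 17.0% of all measured entries that were higher there. Of all measured entries 14.5%, 16.0% and 7.11% were lower in the same order, and the absence of lower genes among so few cannot be told from these shares. Mylip, an LXR target whose product degrades the LDL receptor, was at 21.0 against 9.13 FPKM in FSP1+ over αSMA+ (log2 ratio 1.12) and 24.1 against 6.68 FPKM in FSP1+ over uninjured (1.71). Cholesterol synthesis genes stayed near the level of all entries, with medians of 0.10, 0.23 and 0.11 in FSP1+ over αSMA+, FSP1+ over uninjured and αSMA+ over uninjured, where 22 of 27 were named. The first and last of these turned to -0.14 and -0.10 when taken through the remaining library, and the last to -0.43 in TPM.

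**Figure D3:**
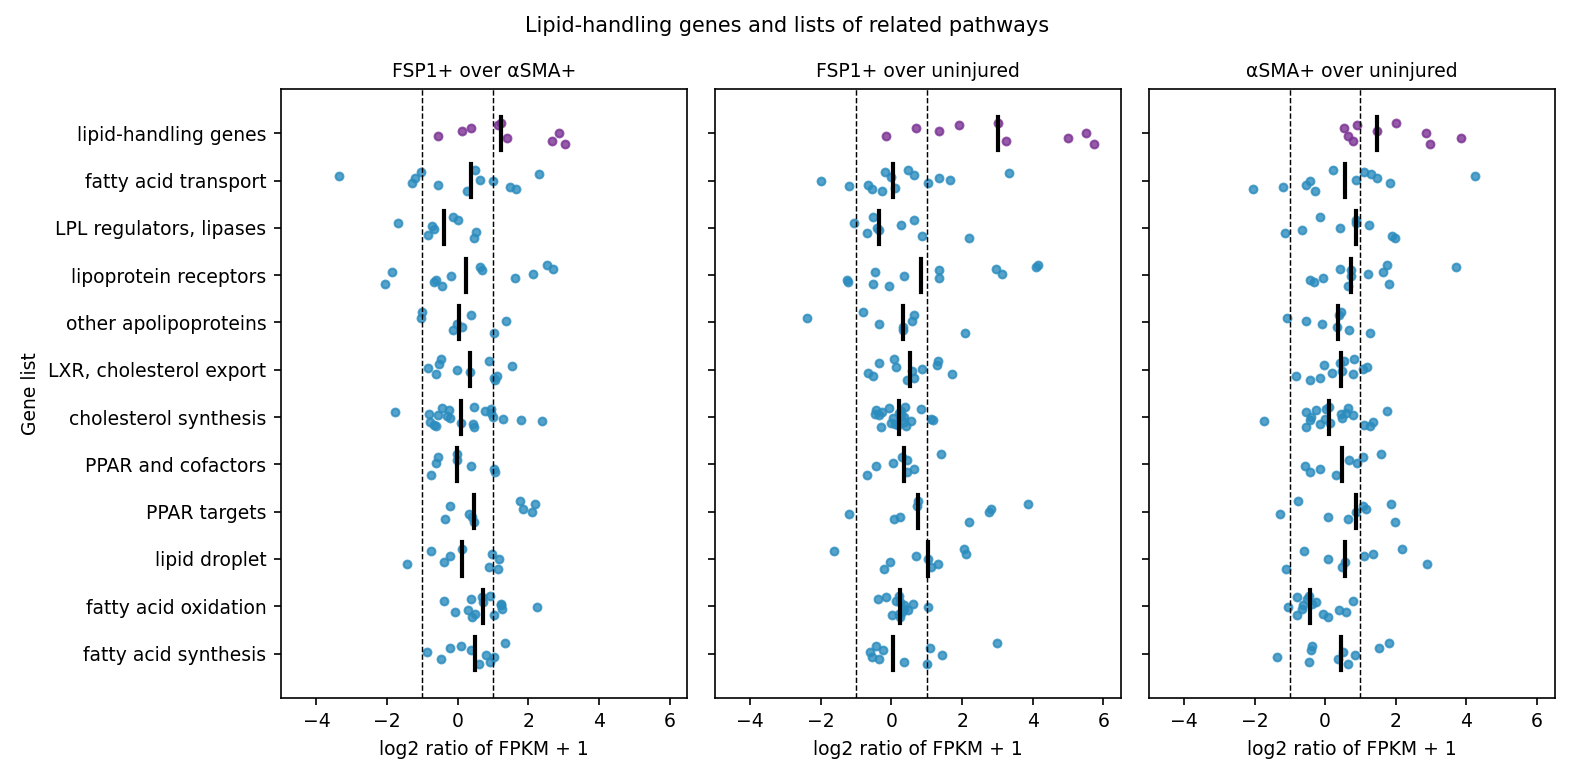
The log2 ratio of each measured gene (points) and the median of its pathway list (black bars) are shown in the 3 comparisons of 1 library with 1 library, with dashed lines at 2-fold. Genes and lists were chosen with earlier results of these data known. The medians of the 9 genes, 1.21, 3.02 and 1.46, lie above those of the other lipid lists at this filter (at 5 FPKM the PPAR targets are at 1.76 in FSP1+ over αSMA+, above 1.21), and Acsl4, in the fatty acid transport list, stands apart at -3.36 in FSP1+ over αSMA+ and 4.25 in αSMA+ over uninjured.

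Of the PPAR target genes other than the 9, 15 of 20 were named and 9 measured, of which 4 were higher in each comparison, with none lower in FSP1+ over αSMA+ and 1 lower in each comparison with uninjured. The medians were 0.46, 0.76 and 0.87 in FSP1+ over αSMA+, FSP1+ over uninjured and αSMA+ over uninjured, and depended on the filter. With at least 5 FPKM in either library they were 1.76, 2.19 and 0.76, and with no filter 0.29, 0.25 and 0.19. Cyp4b1, a fatty acid hydroxylase, stood at 47.9 against 9.78 FPKM in FSP1+ over αSMA+ (log2 ratio 2.18) and at 55.0 against 2.83 FPKM in FSP1+ over uninjured (3.87). Aqp7, a glycerol channel also made by capillary endothelium, stood at 36.8 against 9.49 FPKM (1.85) and at 42.2 against 5.14 FPKM (2.82) in these comparisons. Of PPARs and their cofactors, 9 of 17 were named and 8 measured, with 2, 1 and 2 higher in the 3 comparisons and none lower, and the retinoid X receptor gene Rxra was at 12.2 against 5.32 FPKM in FSP1+ over αSMA+ (1.07).

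Of the fatty acid oxidation list, 14 of 25 were named and all 14 measured, with 5 higher in FSP1+ over αSMA+ (median 0.71), 1 higher in FSP1+ over uninjured (0.24) and 1 lower in αSMA+ over uninjured (-0.42). Acads, a short-chain acyl-CoA dehydrogenase, was at 11.4 against 1.63 FPKM in FSP1+ over αSMA+ (log2 ratio 2.24). Of the lipid droplet list, 10 of 20 were named and 9 measured, with 2 higher and 1 lower in FSP1+ over αSMA+, 5 and 1 in FSP1+ over uninjured, and 4 and 1 in αSMA+ over uninjured. Dgat2, an enzyme of triglyceride synthesis, was highest in αSMA+, at 11.9 against 0.736 FPKM in the uninjured library (2.90) and at 3.11 FPKM in FSP1+ against 10.1 FPKM (-1.43). Pnpla2, the adipose triglyceride lipase gene, was at 47.5 against 10.3 FPKM in FSP1+ over uninjured (2.11). Of the fatty acid synthesis list, 11 of 18 were named and 10 measured, with 2, 4 and 2 higher and 0, 0 and 1 lower in the same order of comparisons.

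Fabp4, Fabp5, Cd36, Gpihbp1 and Pparg are genes of capillary endothelium, macrophages or adipocytes in the heart, so that markers of these cells were measured beside them. Of 14 named endothelial markers, 13 were higher in FSP1+ than in αSMA+, and their summed level was 1214 against 303 FPKM. In FSP1+ over uninjured all 14 were higher (1394 against 101 FPKM), and in αSMA+ over uninjured 10 were higher (359 against 87.9 FPKM). None of the 14 was at 0 in any library, and Pecam1, which encodes CD31, stood at 157 FPKM in FSP1+ and 41.8 FPKM in αSMA+. Of 9 capillary endothelial markers, 6, 9 and 8 were higher in FSP1+ over αSMA+, FSP1+ over uninjured and αSMA+ over uninjured, with medians of 1.57, 3.52 and 2.10. Rgcc, the most abundant of them in FSP1+, stood at 405 against 135 FPKM, 465 against 12.3 FPKM and 160.5 against 10.6 FPKM in these comparisons. The 9 include Fabp3, named above as the binding protein of heart muscle, which was higher in both comparisons with uninjured (log2 ratios 1.04 and 1.84).

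Macrophage and monocyte markers were also higher in most cases. Of 16 named, 12 were higher in FSP1+ than in αSMA+ (summed level 3771 against 1346 FPKM), 16 in FSP1+ over uninjured (4330 against 130 FPKM) and 14 in αSMA+ over uninjured (1595 against 112 FPKM). None was at 0 in any library, and Lyz2, the most abundant, stood at 1063 FPKM in FSP1+ and 469 FPKM in αSMA+. Of the adipocyte markers, 8 of 10 were named and 2 reached 1 FPKM in any library, while the defining gene Adipoq stayed at or below 0.351 FPKM in every library. Cardiomyocyte markers, 6 named, had medians of -0.82 in FSP1+ over αSMA+, 0.52 in FSP1+ over uninjured and 1.47 in αSMA+ over uninjured. Atp2a2, the most abundant of them, stood at 54.9 against 118 FPKM in FSP1+ over αSMA+ and at 139 against 34.2 FPKM in αSMA+ over uninjured. The part of endothelial, macrophage and heart muscle cells in the values of the 9 genes was not tested.

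**Figure D4:**
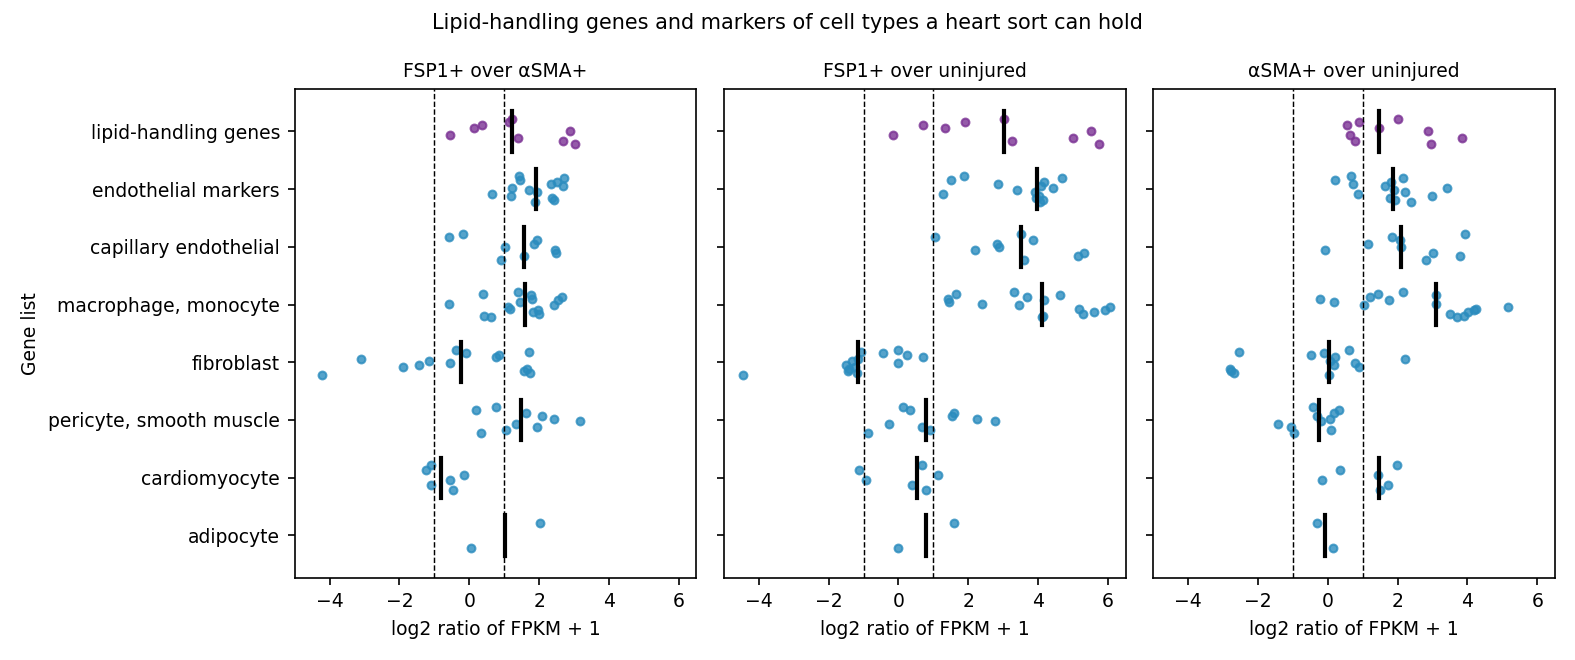
Log2 ratios of the measured markers of each cell type (points) and their medians (black bars) are shown beside the 9 genes, each panel comparing 1 library with 1 library, with dashed lines at 2-fold. Endothelial markers have medians of 1.91, 3.97 and 1.87 and macrophage markers of 1.61, 4.12 and 3.10, whereas fibroblast markers lie at -0.23, -1.17 and 0.05.

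The fibroblast markers, 14 of 17 named, were present in all 3 libraries. In FSP1+ over αSMA+ 4 (Col1a1, Col1a2, Col3a1 and Postn) were higher and 5 lower, in FSP1+ over uninjured none was higher and 9 were lower, and in αSMA+ over uninjured 1 was higher and the 4 genes just named were lower (median 0.05, or -0.58 in TPM). Their summed level was 9170.5 FPKM in FSP1+ against 28316 FPKM in αSMA+, with Gsn the most abundant (2426 and 20694 FPKM), and none was at 0. Pericyte and smooth muscle markers, 10 of 15 named, had medians of 1.49, 0.79 and -0.26, with 7 and 4 higher in FSP1+ over αSMA+ and over uninjured and 2 lower in αSMA+ over uninjured.

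Ratios between genes within a library do not depend on the scaling, and the genes divided by here were chosen with their values known. The FPKM of Fabp4 was 19.7 times that of Pecam1 in FSP1+, 8.99 times in αSMA+ and 6.53 times in uninjured. Per Pecam1, Gpihbp1 stood at 3.15, 1.59 and 1.15 in the same order, whereas Cd36 stood at 1.95, 2.78 and 1.01, highest in αSMA+. Fabp4 per Cdh5, the gene of VE-cadherin, was 48.1, 33.4 and 20.2. The orders of Fabp4 and Gpihbp1 per Pecam1, and of Fabp4 per Cdh5, thus stayed as they were in FPKM, with smaller ratios between libraries. This does not hold for every endothelial gene. In αSMA+ over uninjured, Cldn5 had a log2 ratio of 3.42, above those of Fabp4 (2.96) and Gpihbp1 (2.87). Per Cldn5 the order of the αSMA+ and uninjured libraries would therefore turn for both genes. Apoe per C1qa, a complement gene of macrophages, was 13.1 in FSP1+, 48.5 in αSMA+ and 227 in uninjured, where C1qa stood at 7.66 FPKM. Per Adgre1, another macrophage gene, Apoe was 91.8, 113 and 985 in the same order. Per Dcn, a fibroblast gene, Apoe was 4.49, 1.11 and 0.750. Lpl per Pdgfra, the fibroblast receptor gene that stood at 16.5 FPKM in FSP1+ and 323 FPKM in αSMA+, was 4.51 in FSP1+, 0.338 in αSMA+ and 0.219 in uninjured, whereas per Dcn it was 0.0875, 0.0348 and 0.0410, so that the order of the libraries depended on the fibroblast gene chosen.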

How the data were processed

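RNA of 3 libraries of mouse heart fibroblasts was sequenced, 1 per group. The authors used the Tuxedo Suite for alignment to GRCm38 and Cuffdiff for gene levels (version not given in the sources used here). The labels describe single reads and the methods paired ends. The authors deposited FPKM for 31930 entries in each of 3 tables, every table pairing 2 libraries under its own scaling, with the same library differing by a constant factor between tables (1.15 for FSP1+, 1.19 for αSMA+, 0.867 for uninjured). The remaining deposited columns are the authors' own comparison, from reads of 2 libraries, and were not used: log2 fold changes, the Cuffdiff score that serves as test statistic, p-values and q-values. An offset of 0.001 FPKM was removed. No column of an unmapped sample was present.

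Entries carry UCSC identifiers and positions (starts counted from 0, printed here from 1), so symbols came from RefSeq GRCm38.p6 and GENCODE M21 where span and gene overlapped by at least 0.8 of their union and any second gene by less than 0.7. Of the entries 17663 were named, and 8265 that share a locus stayed unnamed, which left several lists below 80% named.

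After adding 1 to each FPKM, log2 ratios were taken for entries that reached 1 FPKM in either library and called at 2-fold. This understates the change of low genes. With 1 library per group, no test, standard deviation, interval or adjusted p was computed, and arithmetic was tested on simulated data. TPM is FPKM rescaled so that the entries of each library have the same fixed sum. The fold of 2 follows the methods of the study, whose own statistical test was not run. The 9 genes and the gene lists were chosen with earlier results of these data known. Genes named from each list are the 3 most abundant and the 2 highest and 2 lowest ratios of a comparison, and of marker lists the most abundant. Other markers, such as Pecam1, Adipoq, Pdgfra and Col1a1, and the genes divided by were picked outside this rule. Some genes that this rule takes are not reported here. The alternatives were other pseudocounts (0.1 and 5 FPKM), filters, scalings, thresholds (1.5-fold and 4-fold), entries tested by Cuffdiff, a position match of 0.5, and the mean of a list. Tools were NumPy 2.4.6, pandas 2.3.3 and matplotlib 3.10.9 under Python 3.11.15.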

Additional observations from a re-analysis of the deposited data

Results flagged for a closer look

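Between the comparisons of FSP1+ and of αSMA+ with the uninjured library, 1 of the 9 genes and 5 list medians had opposite signs. With 1 library per group and a shared uninjured library, none of these differences was tested. Lpl had a log2 ratio of -0.15 in FSP1+ over uninjured and 0.65 in αSMA+ over uninjured, and neither value reached 2-fold (the former was 0.10 through the αSMA+ library, which ends the difference in sign, and the latter 0.02 in TPM). The list of lipoprotein lipase regulators and other lipases had medians of -0.36 and 0.86 in the same order, although the mean of the former was 0.10, and the fatty acid oxidation list had medians of 0.24 and -0.42. Among markers, those of fibroblasts had medians of -1.17 and 0.050 (the latter was -0.58 in TPM, -0.21 through the FSP1+ library and -0.46 as a mean, so that the opposite sign was lost), those of pericytes and smooth muscle 0.79 and -0.26, and those of adipocytes, of which 2 were measured, 0.78 and -0.087 (0.12 and 0.02 with no filter).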

How the results depend on the processing

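No paired analysis was possible because each group has 1 library. At a 4-fold threshold 3 of the 9 genes were higher in FSP1+ over αSMA+, against 6 at 2-fold, and at a 1.5-fold threshold 8 were higher in αSMA+ over uninjured, against 5. The other 70 recomputed counts of the 9 genes stayed within 1.5 times, no ratio of at least 2-fold changed sign, and 262 recomputed ratios of single genes stayed within 0.585 log2 units while 7 did not. Of list medians, 596 stayed within that limit and 27 did not. The median ratio of all entries became -0.24 in TPM for FSP1+ over uninjured and -0.48 for αSMA+ over uninjured. In these comparisons TPM ratios were thus mostly lower, as for Apoe in αSMA+ over uninjured (1.46, or 0.83 in TPM). Through the remaining library the median of all entries became -0.17, 0.22 and -0.16 in FSP1+ over αSMA+, FSP1+ over uninjured and αSMA+ over uninjured. At 2-fold, the counts of all entries ranged with the setting from 1629 to 3897 higher and 1042 to 3627 lower in FSP1+ over αSMA+ (3135 and 2376 as reported), from 1604 to 3374 and 738 to 4338 in FSP1+ over uninjured (2565 and 2820), and from 1744 to 3519 and 499 to 3885 in αSMA+ over uninjured (2924 and 1224). The cause of these shifts was not tested. Without read numbers, counting error of low genes such as Abcg1 and Abca1 is unknown.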
